A study of Homo sapiens with 6 samples.

Results

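Among the highest β-catenin peaks of human embryonic stem cells kept in plain medium were those at the promoters of 9 genes. The genes were RBM39, CDC5L, CDK12, ASXL1, QRICH1, ERCC6L2, RNF167, PRDX1 and RPL10A. They were chosen from the 10 highest normalized β-catenin signals of the RPMI list. A peak counted as a promoter peak where it was assigned to a gene and its distance to the transcription start site (TSS) was at most 1000 bp. The 9 genes had 9 of the 260 peaks in the RPMI list, 9 of the 1053 peaks in the CHIR list and 11 of the 1813 peaks in the CHIR+SB list. There were 143, 280 and 262 promoter peaks in these lists.

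Chromatin immunoprecipitation with sequencing (ChIP-seq) was done in SA121, a line of human embryonic stem cells, with an antibody to β-catenin and with goat IgG as the control. Cells were fixed after 6 h in RPMI medium alone (RPMI, the mock treatment), in RPMI with CHIR99021 (CHIR), an inhibitor of the kinase GSK3, or in RPMI with CHIR99021 and SB431542 (CHIR+SB), an inhibitor of the activin, Nodal and TGFβ type I receptors. The series addresses where β-catenin is found on the genome under these conditions. There was 1 β-catenin library and 1 IgG library per condition, made from pooled DNA of 3 parallel ChIPs, so no spread between replicates exists and no difference between conditions was tested. Peak lists hold no expression values, and the cell type was not checked against markers.

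β-catenin has no DNA-binding domain of its own and is best known for reaching DNA through TCF and LEF factors, at enhancers and promoters of Wnt target genes. GSK3 marks β-catenin for degradation, so an inhibitor of GSK3 stabilises it. The 9 genes are not classical Wnt targets. They encode proteins of RNA processing, transcription, chromatin, DNA repair, protein turnover, redox defence and translation, which most cell types make.

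The promoter letters are shown first, because most members with a window shared a feature there that the choice by signal did not use. RefSeq promoter windows (assembly GRCh38.p14, matched by gene symbol) were at hand for 7 of the 9 genes, with 12 annotated starts. The windows are the 250 bases before a start, read along the gene, 5′ to 3′. Capitals mark each match to the 8 letters TCTCGCGA or, on the other strand, TCGCGAGA. These letters are the core of a palindrome that, as background, is known to be bound by BANP and by ZBTB33 (Kaiso). Where both forms overlap, the whole 10-letter palindrome is in capitals. The first of the 4 sequences is the window of CDC5L (chr6:44387456-44387705, plus strand), and the others are those of ERCC6L2 (chr9:95875441-95875690, plus), CDK12 (chr17:39461236-39461485, plus) and RPL10A (chr6:35468151-35468400, plus).

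CDC5L: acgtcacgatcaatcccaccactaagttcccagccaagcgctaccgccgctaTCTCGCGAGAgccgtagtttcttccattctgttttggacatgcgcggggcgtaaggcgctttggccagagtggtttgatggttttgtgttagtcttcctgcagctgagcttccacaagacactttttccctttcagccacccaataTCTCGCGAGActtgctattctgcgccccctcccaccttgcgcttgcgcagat
ERCC6L2: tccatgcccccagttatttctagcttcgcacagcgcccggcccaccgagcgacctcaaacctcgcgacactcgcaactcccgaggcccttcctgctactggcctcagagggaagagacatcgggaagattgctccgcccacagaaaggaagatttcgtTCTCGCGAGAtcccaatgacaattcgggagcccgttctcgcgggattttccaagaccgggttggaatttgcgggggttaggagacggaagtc
CDK12: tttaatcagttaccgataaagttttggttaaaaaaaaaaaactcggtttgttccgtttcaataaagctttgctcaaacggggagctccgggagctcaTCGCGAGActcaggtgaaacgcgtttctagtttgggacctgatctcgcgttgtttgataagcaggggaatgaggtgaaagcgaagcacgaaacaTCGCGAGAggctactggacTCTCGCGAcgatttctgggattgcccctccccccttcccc
RPL10A: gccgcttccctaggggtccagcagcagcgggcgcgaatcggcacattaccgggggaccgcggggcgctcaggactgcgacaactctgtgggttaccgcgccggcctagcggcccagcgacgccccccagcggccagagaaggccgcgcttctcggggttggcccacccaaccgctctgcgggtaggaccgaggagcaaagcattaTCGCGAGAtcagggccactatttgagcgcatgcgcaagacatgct

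RNF167 and QRICH1 have more than 1 annotated start, and the core lay before the second start of each, so that a short stretch is shown. For RNF167 it is chr17:4940206-4940235 (plus strand) and for QRICH1 chr3:49094077-49094106 (minus strand). ASXL1 is the gene with windows and no core, and the window of the first of its 3 starts (chr20:32358081-32358330, plus strand) is shown for contrast. The RPMI peak of ASXL1 reached 620 bp before the TSS, farther than a window does. Much of that peak was thus not searched, and whether it holds the core there was not tested.

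RNF167: ttgtttgaaggTCTCGCGAGAtcgagtgag
QRICH1: cgccccgattaTCGCGAGAggagcaatcgg
ASXL1: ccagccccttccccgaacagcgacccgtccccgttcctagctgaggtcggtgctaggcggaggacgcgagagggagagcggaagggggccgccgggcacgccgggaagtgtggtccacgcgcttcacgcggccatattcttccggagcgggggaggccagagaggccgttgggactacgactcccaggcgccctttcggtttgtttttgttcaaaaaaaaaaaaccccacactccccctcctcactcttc

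The core was present in 6 of the 7 genes, against 1.84% of the 15842 protein-coding genes with a window (292 genes). CDC5L held the whole palindrome 2 times, at 198 to 189 and at 52 to 43 bases before the start. ERCC6L2 held it once, 92 to 83 bases before the start, and RNF167 once, 51 to 42 bases before its second start. RNF167 also had a single core 9 to 2 bases before that start. CDK12 had 3 separate cores, at 153 to 146, 59 to 52 and 40 to 33 bases before the start. RPL10A had 1 core, 45 to 38 bases before the start, and QRICH1 had 1, 24 to 17 bases before its second start. The core thus lay within 100 bases of a start in each of these 6 genes, and further copies lay farther out in CDC5L and CDK12.

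The other letters searched, on both strands, were each in 0 to 3 of the 7 genes. CTTTGAT, the core of the TCF and LEF site, was in none of the 7 genes and in 2.34% of protein-coding genes, and the variant CTTTGTT was in none of the 7 and in 4.92%. The ETS letters CCGGAAG were in ASXL1 alone (13.98% of protein-coding genes) and the NRF1 letters GCGCATGCG in RPL10A alone (2.74%). The CCAAT letters were in CDC5L and ERCC6L2 (40.2%), and the GC box GGGCGG in ASXL1, ERCC6L2 and QRICH1 (62.1%). The letters of CRE (TGACGTCA, 2.73%), YY1 (AAGATGGCG, 0.972%), the octamer (ATGCAAAT, 2.15%) and the TATA box (TATAAA, 11.9%) were in none of the 7. The 9 letters TCTCGCGAG, searched first, were in CDC5L, ERCC6L2 and RNF167 (1.07%). The 8-letter core overlaps these 9 letters and was taken up after the members' windows had been seen. The median GC content was 62.8% over the 12 windows, close to the 62.0% over 22198 windows of protein-coding genes. The median number of CpG pairs was 23 against 16. A match is a description of letters and not of a bound site. The windows hold bases before a start only, while the members' RPMI peaks were 653 to 832 bp wide and also reached past the TSS. Whether letters absent from the windows, CTTTGAT among them, lie elsewhere in the peaks was not tested.

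The core was then counted in the promoters that had no part in the choice. Without the 9 genes, 86 of 115 genes with an RPMI promoter peak and a window held it (74.8%, exact 95% binomial interval 65.8 to 82.4%). In 4 groups by RPMI promoter signal, from the lowest to the highest and again without the 9 genes, the shares were 66.7%, 67.6%, 71.4% and 100% (23 of 23, 85.2 to 100%). Of the genes whose CHIR promoter peak overlapped an RPMI peak, 75.7% held the core (81 of 107, 66.5 to 83.5%), against 33.9% of those whose CHIR peak overlapped none (38 of 112, 25.2 to 43.5%). In CHIR+SB the shares were 78.0% (71 of 91, 68.1 to 86.0%) and 23.4% (25 of 107, 15.7 to 32.5%). The core was thus common at RPMI promoter peaks outside the members too, and less common at promoter peaks that overlapped no RPMI peak. The sets with and without an overlap were not matched for signal.

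**Figure D1:**
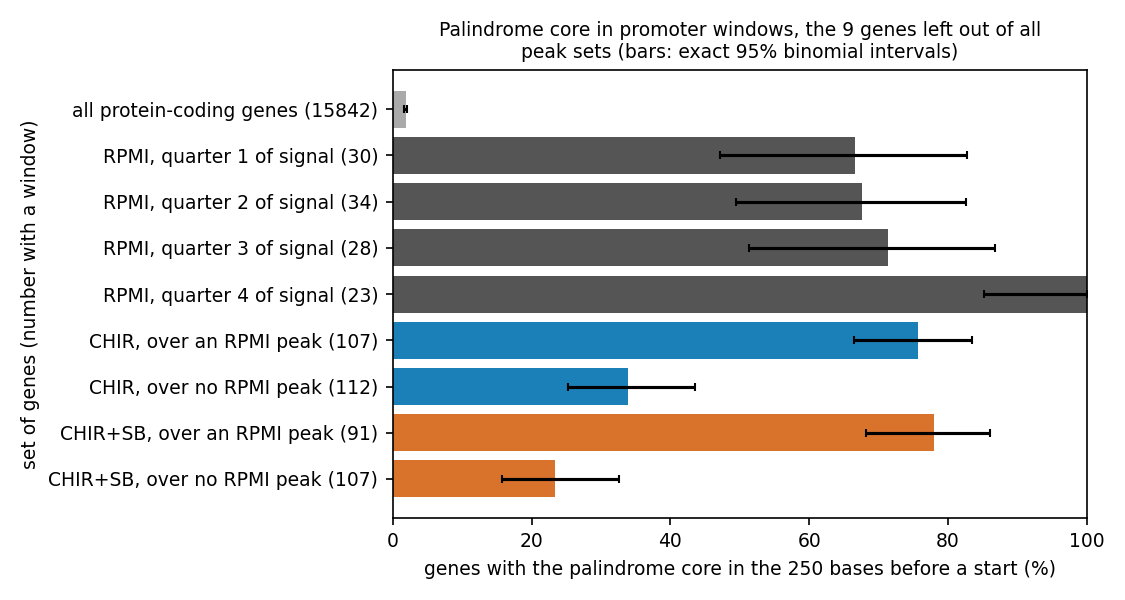
Share of genes with the 8-letter palindrome core in the 250 bases before a start (x axis, percent) for all protein-coding genes and for sets of promoter peaks without the 9 genes (y axis, number of genes with a window in brackets); the 4 RPMI groups run from the lowest to the highest signal. Bars are shares and lines exact 95% binomial intervals. The share was 1.84% over all protein-coding genes, 66.7 to 100% in the 4 RPMI groups, and 33.9% and 23.4% at the CHIR and CHIR+SB promoter peaks that overlapped no RPMI peak.

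Read from the letters to the peaks, 89 of the 292 protein-coding genes with the core had an RPMI promoter peak (30.5%, 25.3 to 36.1%), against 26 of 15550 genes without it (0.167%). The 7 members with a window are included here and in the shares that follow. Of these, 6 held the core, and each had an RPMI promoter peak by choice. With the whole palindrome it was 52 of 102 genes (51.0%, 40.9 to 61.0%). In CHIR the share of genes with the core was 41.1% (120 of 292) and in CHIR+SB 33.9% (99 of 292), against 0.585% and 0.598% of genes without it. For CTTTGAT the shares in RPMI, CHIR and CHIR+SB were 0.809% (3 of 371), 1.89% (7 of 371) and 2.16% (8 of 371). Genes without these letters had 0.724%, 1.32% and 1.19%. For the ETS letters CCGGAAG the shares were 1.31%, 2.21% and 1.85%, against 0.631%, 1.19% and 1.11% of genes without them. Most genes with the core thus had no promoter peak in any 1 list. Without the 9 genes, the median signal of RPMI promoter peaks was 15.4 with the core (87 peaks) and 12.8 without it (29 peaks), and the medians were 17.7 and 11.5 in CHIR and 16.9 and 10.97 in CHIR+SB. Peak positions are in the build hg19 and the windows in GRCh38.p14, so the letters were joined to peaks by gene symbol and not by position.

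The members' values follow by role, with the count of β-catenin reads in the peak, the count of IgG reads there and the normalized signal, which is the read count multiplied by 1 factor per library. Positions are those of the lists, in hg19. Ratios of signal carry exact 95% intervals from the read counts of both libraries, which cover counting error only. The RPMI signal chose the members, so ratios to RPMI are a description; the ratio of CHIR+SB to CHIR uses libraries that the choice did not.

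RBM39, an RNA-binding coactivator and splicing factor, had the highest peak of all in each list. Its RPMI peak lay at chr20:34329882-34330714 and was 832 bp wide, against 908 bp in CHIR. In CHIR+SB the peak was divided into segments of 483 and 159 bp with a gap of 119 bp between them. RBM39 held 115 RPMI reads, 234 CHIR reads and 174 CHIR+SB reads (124 and 50 in the segments). The signal was 73.7, 89.9 and 97.9 in that order. RBM39 was thus the highest of the 9 under every condition, and it was higher in both inhibitor libraries than in RPMI. The ratio was 1.22 for CHIR over RPMI (0.971 to 1.54), 1.33 for CHIR+SB over RPMI (1.04 to 1.70) and 1.09 for CHIR+SB over CHIR (0.890 to 1.33). The higher segment alone gave 0.947 (0.728 to 1.23) and 0.776 (0.619 to 0.969) for the last pair of comparisons, so the direction rested on adding the segments. RBM39 also had the most IgG reads of any RPMI peak (15) and of any CHIR peak (16), and it had 36 in CHIR+SB.

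CDC5L, a core protein of the PRP19 complex of the spliceosome, was close to level in the 3 libraries. The RPMI peak covered chr6:44354983-44355658, and the widths were 675, 724 and 593 bp in RPMI, CHIR and CHIR+SB. It held 56, 100 and 55 reads, with 6, 8 and 21 IgG reads. The signal was 35.9, 38.4 and 30.9. The ratios were 1.07 (0.764 to 1.51), 0.862 (0.583 to 1.27) and 0.806 (0.569 to 1.13) for CHIR over RPMI, CHIR+SB over RPMI and CHIR+SB over CHIR, and each interval included 1.

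CDK12, the cyclin K partner that phosphorylates the tail of RNA polymerase II during elongation, was among the 10 highest peaks of every list. Its RPMI peak lay at chr17:37617273-37618021, with widths of 748, 680 and 791 bp. It held 85, 136 and 107 reads and 10, 14 and 24 IgG reads. The signal was 54.5, 52.2 and 60.2, a narrow range. The ratios were 0.959 (0.726 to 1.27), 1.11 (0.823 to 1.49) and 1.15 (0.886 to 1.496) in the same order, and no interval excluded 1.

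ASXL1, a Polycomb-related protein that activates the histone H2A deubiquitinase BAP1, was the member with the largest ratio of CHIR to RPMI. Its RPMI peak lay at chr20:30945526-30946179 and was 653 bp wide, mostly upstream, with 620 bp before the TSS and 33 bp after it. The CHIR peak was 725 bp wide. The CHIR+SB peak was divided into segments of 193 and 156 bp with a gap of 297 bp. ASXL1 held 60 RPMI reads, 154 CHIR reads and 90 CHIR+SB reads (44 and 46 in the segments), with 8, 9 and 33 IgG reads. The signal was 38.5, 59.1 and 50.6. CHIR was 1.54 times RPMI (1.13 to 2.11), CHIR+SB 1.32 times RPMI (0.939 to 1.86), and CHIR+SB 0.856 times CHIR (0.653 to 1.12). The higher segment alone gave 0.673 (0.448 to 1.005) and 0.438 (0.308 to 0.612) for the comparisons with CHIR+SB. A further ASXL1 peak in CHIR, 1092 bp from the TSS with 30 reads, lay just beyond the promoter limit and was not counted.

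QRICH1, a transcriptional regulator of the unfolded protein response, had the lowest RPMI signal of the 9. In RPMI the QRICH1 peak spanned chr3:49131184-49131848, with widths of 664, 770 and 622 bp. It held 51, 118 and 76 reads and 8, 6 and 23 IgG reads. The signal was 32.7, 45.3 and 42.8, higher in both inhibitor libraries. The ratios were 1.39 (0.990 to 1.97) for CHIR over RPMI, 1.31 (0.905 to 1.90) for CHIR+SB over RPMI and 0.944 (0.698 to 1.27) for CHIR+SB over CHIR. All of these intervals included 1.

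ERCC6L2, an SNF2 family helicase of DNA repair, ranked with CDK12 in RPMI and next to RBM39 with either treatment. The peak spanned chr9:98637535-98638223 in RPMI, with widths of 688, 865 and 778 bp. It held 83, 185 and 123 reads and 10, 12 and 27 IgG reads. The signal was 53.2, 71.0 and 69.2. CHIR was 1.34 times RPMI (1.03 to 1.75), CHIR+SB was 1.30 times RPMI (0.977 to 1.74), and CHIR+SB was 0.974 times CHIR (0.769 to 1.23). The CHIR peak was also 1.26 times as wide as the RPMI peak, and per kb of width the ratio was 1.06.

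RNF167, a membrane-anchored ubiquitin ligase of the endosome and lysosome, had nearly the same signal in all 3 libraries. Its RPMI peak lay at chr17:4843197-4843918, with widths of 721, 695 and 699 bp. It held 62, 96 and 69 reads and 5, 10 and 19 IgG reads, and the signal was 39.7, 36.9 and 38.8. The ratios were 0.928 (0.667 to 1.30), 0.977 (0.683 to 1.40) and 1.05 (0.761 to 1.45), each with 1 inside its interval. SLC25A11 starts in the opposite direction within 1 kb in RefSeq, so the peak could be assigned to either gene.

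PRDX1, a peroxiredoxin that reduces hydrogen peroxide, had the smallest ratio of CHIR to RPMI. The peak in RPMI was at chr1:45987224-45987956, with widths of 732, 677 and 659 bp. It held 62, 81 and 61 reads, and IgG reads numbered 3, 11 and 21. The signal was 39.7, 31.1 and 34.3, highest in RPMI. CHIR was 0.783 times RPMI (0.555 to 1.11), CHIR+SB 0.864 times RPMI (0.596 to 1.25), and CHIR+SB 1.10 times CHIR (0.778 to 1.56). None of these intervals excluded 1.

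RPL10A, a protein of the large ribosomal subunit, was the member with the lowest signal in CHIR+SB. RPMI reads marked a peak at chr6:35435801-35436498, with widths of 697, 731 and 493 bp. It held 52, 95 and 32 reads, with 7, 8 and 16 IgG reads. The signal was 33.3, 36.5 and 18.0, level in RPMI and CHIR and lower in CHIR+SB. CHIR was 1.09 times RPMI (0.773 to 1.57). CHIR+SB was 0.540 times RPMI (0.337 to 0.855) and 0.493 times CHIR (0.320 to 0.744). The CHIR+SB peak reached 93 bp past the TSS, against 321 bp in RPMI and 323 bp in CHIR, so it lacked most of the part within the gene. Per kb of width the ratios were 0.764 and 0.732.

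**Figure D2:**
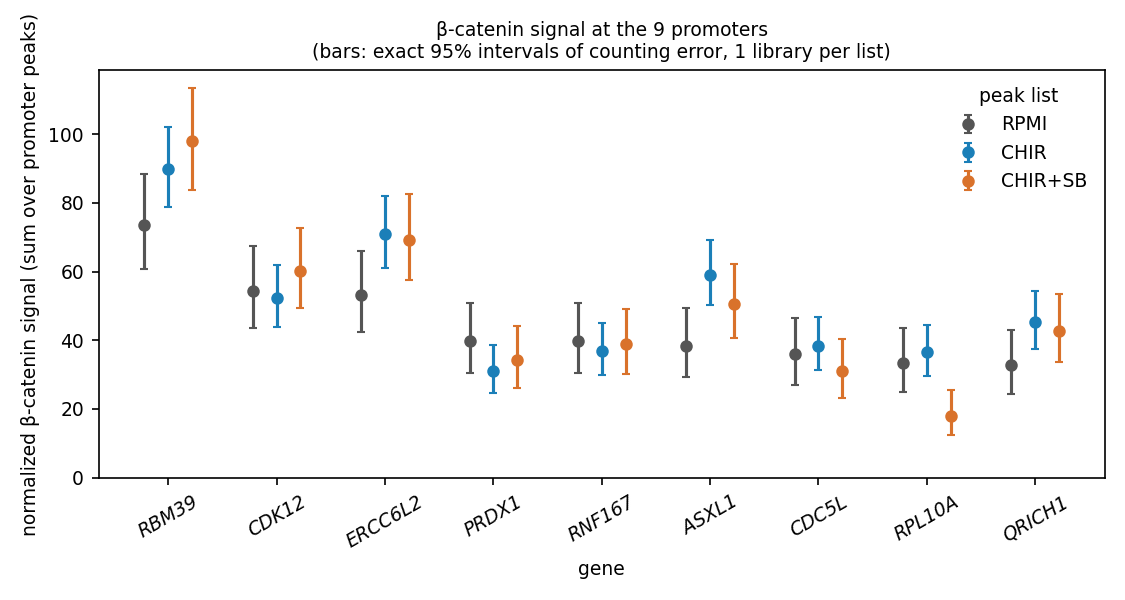
Normalized β-catenin signal (y axis, read count multiplied by the library's factor, summed over a gene's promoter peaks) at the 9 promoters (x axis, in order of RPMI signal) in RPMI, CHIR and CHIR+SB. Points are single libraries and bars exact 95% intervals of counting error. RBM39 was the highest in every list, from 73.7 to 97.9, and RPL10A in CHIR+SB was the lowest value, at 18.0.

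All 9 promoters had a peak over the RPMI peak in both other lists, against 93.0% of all RPMI promoter peaks in CHIR and 82.5% in CHIR+SB. Among the 10 highest peaks were 9 members in RPMI, by choice, 5 in CHIR (RBM39, ERCC6L2, ASXL1, CDK12 and QRICH1) and 3 in CHIR+SB (RBM39, ERCC6L2 and CDK12). The lowest ranks were 37 of 1053 in CHIR, for PRDX1, and 233 of 1813 in CHIR+SB, for RPL10A. The 9 promoters held 9.98% of all β-catenin reads within RPMI peaks (626 of 6272, exact interval 9.25 to 10.7%), 3.04% in CHIR (1199 of 39408) and 2.02% in CHIR+SB (787 of 39022). The share was smaller in the longer lists, while the summed signal at the promoters in the same order was 401, 460 and 443. By the factors, the β-catenin libraries had 1.67 (CHIR) and 1.14 (CHIR+SB) times the depth of RPMI, and the IgG libraries 0.976 and 1.75 times, if the factors scale to a common depth.

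Within a list, few neighbours in the order of the 9 could be told apart. In RPMI the order was RBM39, CDK12, ERCC6L2, then PRDX1 and RNF167 with equal counts, ASXL1, CDC5L, RPL10A and QRICH1. The interval of the ratio between neighbours excluded 1 in 1 of 8 pairs in RPMI (RBM39 over CDK12), in 1 in CHIR (RBM39 over ERCC6L2) and in 2 in CHIR+SB (RBM39 over ERCC6L2, and CDC5L over RPL10A). The RBM39 call in CHIR+SB rested on adding its segments, since the higher segment held 124 reads and ERCC6L2 held 123. From the highest to the lowest member the signal fell 2.25 times in RPMI (1.61 to 3.20), 2.89 times in CHIR (2.23 to 3.77) and 5.44 times in CHIR+SB (3.71 to 8.20). At the limit of the choice, QRICH1 and the ribosomal protein gene RPL12 both had 51 reads, RPL10A just inside had 52, and ARF3, a small GTPase gene just outside, had 50.

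Summed over the 9 promoters, CHIR signal was 1.15 times RPMI signal (1.04 to 1.27), CHIR+SB 1.10 times RPMI (0.992 to 1.23) and CHIR+SB 0.962 times CHIR (0.878 to 1.05). Over all promoter peaks that overlapped one-to-one, the median ratios were 1.21 (130 pairs), 1.07 (113 pairs) and 0.873 (170 pairs). Medians over the members were 1.09, 1.11 and 0.974. Scaled by the median promoter peak in place of the factors, the CHIR to RPMI sum was 0.949, and the CHIR+SB to CHIR sum was 1.10, so both directions turned with the scaling. With the highest peak of each member alone, CHIR+SB over RPMI turned to 0.972.

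Differences of 1.5 times or more were counted in each comparison. In CHIR over RPMI, 1 member was higher (ASXL1) and 0 lower, where 19.2% of all promoter pairs were higher and 0.769% lower. In CHIR+SB over RPMI, 0 were higher and 1 lower (RPL10A), with 13.3% and 6.19% of pairs. In CHIR+SB over CHIR, 0 were higher and 1 lower (RPL10A again), with 5.29% and 14.1% of pairs. Each count is near what the share of all pairs would give for 9 peaks, so the counts say nothing particular to the members. The ratios of RPL10A stood at the 1.77th percentile of pairs over RPMI and at the 1.76th over CHIR. Both ratios share the 1 CHIR+SB library. Which members passed the limit turned with the processing. Scaled by the median promoter peak, PRDX1 was lower in CHIR than in RPMI (0.648) and ASXL1 no longer passed. Per kb of width, RBM39 (1.72) and ASXL1 (2.46) were higher in CHIR+SB than in RPMI, and RPL10A (0.764) did not pass.

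**Figure D3:**
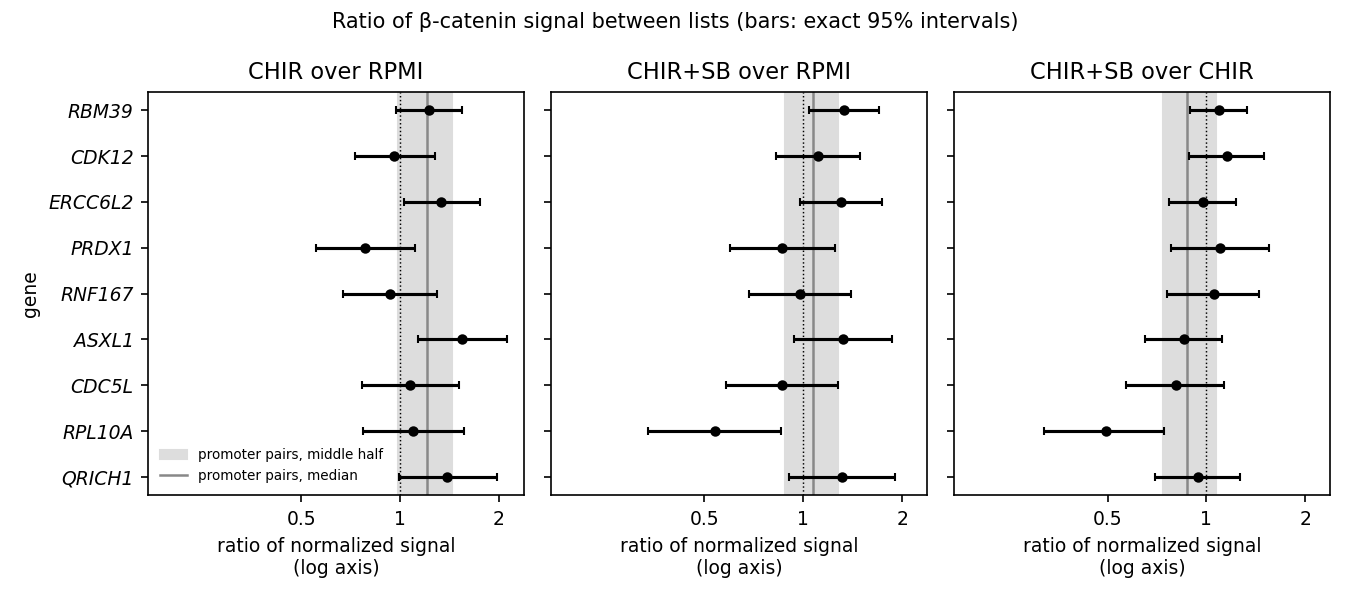
Ratio of normalized β-catenin signal between lists (x axis, log scale) for the 9 genes (y axis) in the 3 comparisons. Points are ratios with exact 95% intervals, the dotted line is a ratio of 1, and the grey line and band are the median and the middle 50% of all one-to-one promoter pairs. ASXL1 in CHIR over RPMI (1.54) and RPL10A in both comparisons with CHIR+SB (0.540 and 0.493) were the values 1.5 times or more from 1.

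The peaks were broad and centred near the start. Signal summed over a peak grows with its width, so the choice by signal favoured wide peaks, and by signal per kb 0 of the 9 were among the 10 highest RPMI peaks. The TSS lay inside the peak for all 9 genes in RPMI and CHIR and inside 9 of the 11 peaks in CHIR+SB, the exceptions being the upstream segments of RBM39 and ASXL1. The median width of the members was 697, 725 and 593 bp in RPMI, CHIR and CHIR+SB, against 368, 423.5 and 358.5 bp over all promoter peaks. The median distance from the peak to the TSS was 40.0, 42.5 and 42.0 bp, against 65.0, 100.5 and 100.8 bp. CHIR peaks covered 90.6 to 100% of the length of each RPMI peak. In CHIR+SB the coverage was lowest at ASXL1 (48.7%), RPL10A (67.3%) and RBM39 (75.5%) and was 81.2% or more at the other 6. These are the divided peaks and the shortened peak described above.

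**Figure D4:**
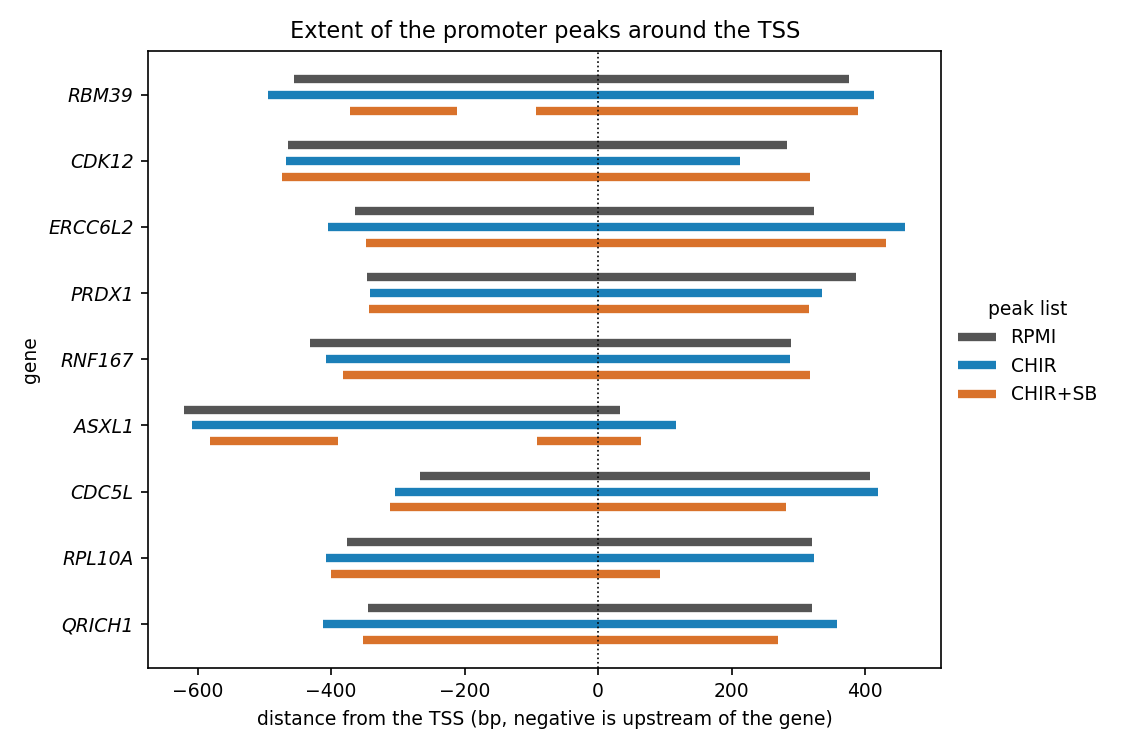
Extent of the promoter peaks of the 9 genes (y axis) as distance from the TSS (x axis, bp, negative is upstream along the gene) in RPMI, CHIR and CHIR+SB. Each line is 1 peak and the dotted line is the TSS. RBM39 and ASXL1 show gaps of 119 and 297 bp in CHIR+SB, and the RPL10A peak ended 93 bp past the TSS there.

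IgG reads at the 9 promoters differed between libraries too, with 1 IgG library per condition. Their normalized IgG signal in CHIR was 1.34 times that in RPMI (0.974 to 1.84), in CHIR+SB 1.75 times RPMI (1.33 to 2.31) and in CHIR+SB 1.31 times CHIR (1.02 to 1.68), where all promoter pairs gave 1.13, 1.17 and 1.06. β-catenin signal over IgG signal, summed over the 9, was 8.09 in RPMI (6.33 to 10.5), 6.94 in CHIR (5.62 to 8.66) and 5.11 in CHIR+SB (4.40 to 5.96). Other promoter peaks had 4.17, 4.48 and 3.91. Summed over the 9, the members thus lay above the other promoters in each list, and in CHIR+SB their interval lay below that of RPMI. Single members did not all lie above: PRDX1 in CHIR (4.01) was below the other promoters. In CHIR+SB, RPL10A (2.86), CDC5L (3.74) and ASXL1 (3.90) were below or level with them. In RPMI the choice by signal favoured a high ratio. From raw reads the ratios were 8.69, 12.8 and 3.58, so the order of RPMI and CHIR turned with the scaling of the libraries.

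Single members had wide intervals, because IgG counts were small. In RPMI the ratio over IgG ran from 5.93 at QRICH1 to 19.2 at PRDX1, which had 3 IgG reads. In CHIR it ran from 4.01 at PRDX1 to 10.7 at QRICH1, and in CHIR+SB from 2.86 at RPL10A to 6.91 at RBM39. The order of the members by this ratio was not the order by signal. The part of the IgG reads in the differences between conditions was not tested.

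IgG counts also bear on the divided peaks. At RBM39 the segments of 483 and 159 bp held 19 and 17 IgG reads, and at ASXL1 the segments of 193 and 156 bp held 16 and 17. Over the CHIR+SB list, peaks of at most 200 bp had a median of 5 IgG reads at a median width of 136 bp (694 peaks), and peaks of at least 600 bp a median of 13 at 664.5 bp (140 peaks). IgG reads thus rose with width, by less than in proportion. Whether neighbouring segments count some reads more than once was not tested. With the 7 members that had 1 peak in each list, the summed ratios were 1.08 (0.959 to 1.21), 1.02 (0.896 to 1.16) and 0.945 (0.845 to 1.06).

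**Figure D5:**
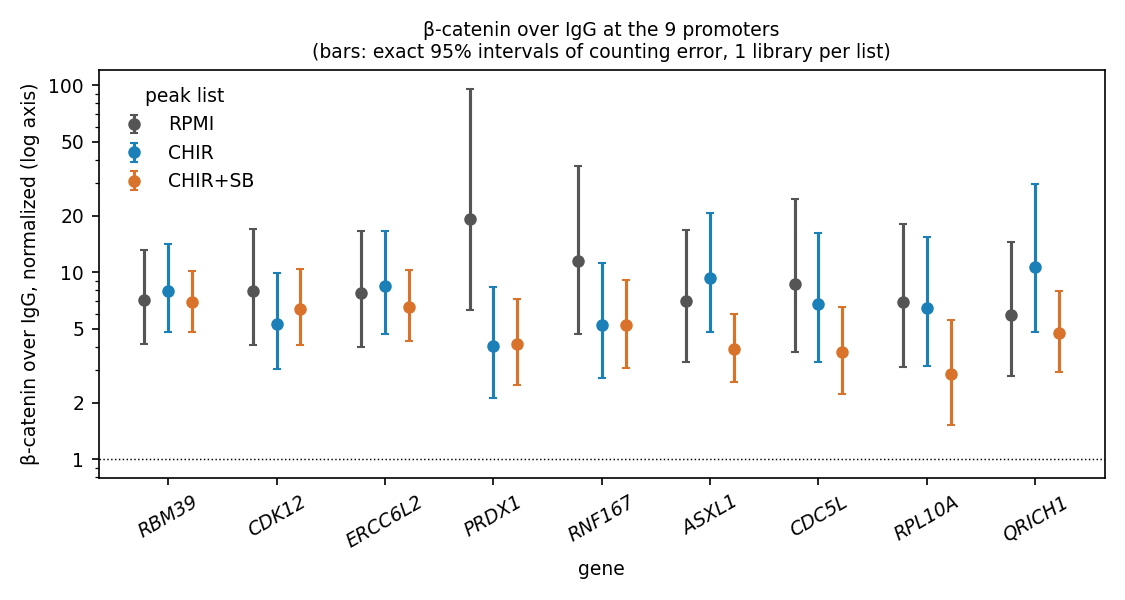
Ratio of normalized β-catenin to normalized IgG signal (y axis, log scale) at the 9 promoters (x axis) in RPMI, CHIR and CHIR+SB. Points are ratios and bars exact 95% intervals of counting error, with 1 library of each kind per list; the dotted line is 1. Every point lay above 1, from 2.86 (RPL10A in CHIR+SB) to 19.2 (PRDX1 in RPMI).

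Genes of the same roles were looked up in the lists. Over all 20052 protein-coding genes, the share with a promoter peak was 0.663%, 1.26% and 1.15% in RPMI, CHIR and CHIR+SB. Ribosomal protein genes had the most: 10 of 77 had one in the RPMI list, 10 in the CHIR list and 8 in the CHIR+SB list. At a signal minimum of 9.61 in every list the CHIR+SB number was 4, with 10 in RPMI and 8 in CHIR. RPL12 is in neither CHIR+SB number, because its peak there (58 reads, signal 32.6) was assigned to the neighbouring gene LRSAM1. After RPL10A, RPL12 (51 reads), RPS19 (44 reads) and RPL17 (23 reads) were among those highest in RPMI. Of 32 splicing factors, 3 had a promoter peak in every list: RBM39, CDC5L and PUF60, a U2AF-related factor with 27, 46 and 27 reads. Of 22 genes of transcription kinases and elongation factors, CDK12 and SUPT5H, a subunit of the DSIF elongation complex, had one in RPMI (85 and 17 reads) and CHIR (136 and 69 reads), and CDK12 alone in CHIR+SB.

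In the other lists the member was nearly alone. ASXL1 was the 1 gene of 19 of the Polycomb and PR-DUB complexes with a promoter peak, PRDX1 the 1 of 16 peroxide and thioredoxin enzymes and RNF167 the 1 of 11 PA-TM-RING ligases, in every list. Of 17 excision repair and SNF2 genes, ERCC6L2 had one in every list and SMARCA5, a chromatin remodeller, in CHIR (35 reads). Each list was built around a member that has a peak, which raises its share above that of all protein-coding genes by construction. For comparison, the Wnt-responsive genes AXIN2, SP5, CDX2 and EVX1 were looked up. Of these, 0 of 4 had a promoter peak in RPMI, 3 had one in CHIR and 2 had one in CHIR+SB. The EVX1 promoter peak in CHIR had 20 reads and a signal of 7.68, the lowest value in that list. With the signal minimum applied to the ribosomal protein genes, the number was 2 in CHIR and 2 in CHIR+SB. CDX2 and EVX1 also had CHIR peaks beyond the promoter limit. These lay 3081 bp (CDX2, signal 68.0) and 2854 bp (EVX1, signal 37.6) from the TSS. By the highest peak of each gene at any distance, CDX2, EVX1, SP5 and AXIN2 ranked 3, 15, 28 and 61 in CHIR. In CHIR+SB they ranked 8, 5, 7 and 10, with signals of 47.3, 52.9, 47.8 and 45.6.

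Among 100 promoter peaks of other genes that overlapped one-to-one in all 3 lists, those named as nearest to the median of the members on the log2 scale of signal were BTBD10, ARF3, MAP2K2, TMEM209 and RPL12. Any other gene with an RPMI peak ranked above QRICH1 was left out of this naming. Distance was Euclidean over 3 values per gene. BTBD10 had 48, 106 and 60 reads (signal 30.8, 40.7 and 33.8) in RPMI, CHIR and CHIR+SB. ARF3 had 50, 127 and 56 reads (signal 32.0, 48.8 and 31.5). The median signal of the members was 39.7, 45.3 and 42.8, so these genes lay below it in RPMI and CHIR+SB. MAP2K2, which encodes the kinase MEK2, had 47, 101 and 53 reads. TMEM209 had 48, 85 and 59, and RPL12 had 51, 82 and 58, where the CHIR+SB peak was assigned to the neighbouring gene LRSAM1. In CHIR and CHIR+SB the signals of these 5 genes lay within the range of the members, and in RPMI at its lowest value or just below it.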

How the data were processed

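β-catenin and IgG ChIP-seq of SA121 cells gave 1 peak list per condition. Per the submitters' processing notes, Bowtie was the aligner, with hg19 and mm9 as the builds named. Not given in the sources used here are the version of Bowtie, the peak caller with its thresholds, and each library's depth. Per the file headers, the authors deposited for each peak the count of β-catenin reads, the count of IgG reads, both counts in normalized form, the assigned gene and its TSS. The deposited normalized signal was the count times 1 factor per library (0.641, 0.384 and 0.563 for β-catenin in RPMI, CHIR and CHIR+SB), and decimal commas were read as points. IgG libraries were used through these counts only.

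Signals of all promoter peaks of a gene were added. Intervals are exact 95% conditional binomial (ratios), Poisson (signals) and Clopper-Pearson (shares), and cover counting error only. Only the ratio intervals were checked on simulated data, for CHIR over RPMI, with Poisson counts that hold no spread between libraries. Peaks of 2 lists overlapped where they shared at least 1 bp, and pairs were one-to-one where neither met a further peak. Python 3.11.15, numpy 2.4.6, pandas 2.3.3, scipy 1.17.1 and matplotlib 3.10.9 were used.

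The members and the 8 gene lists were chosen with earlier results of these data known. Named genes were the members, the peaks next to the limit, the 5 most alike genes, at most 4 genes per list by RPMI signal, and AXIN2, SP5, CDX2 and EVX1. SMARCA5 was named after its value was seen. A further peak among the 10 highest of RPMI is not reported here. Alternatives were the scaling, the width, the IgG background, the overlap, the peaks counted, the fold, the distance to the TSS, a stricter signal minimum, the promoter window and, chosen after seeing the data, the letters of the palindrome and the members with undivided peaks.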

Additional observations from a re-analysis of the deposited data

How the results depend on the processing

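No paired analysis was possible because each condition had 1 β-catenin library, and for the same reason no library could be left out. Scaled by the median promoter peak, the summed ratio turned to 0.949 in CHIR over RPMI and was 1.10 in CHIR+SB over CHIR, and in CHIR over RPMI 0 members were higher by 1.5 times and 1 lower. With signal per kb of width the sums with CHIR+SB were 1.26 over RPMI and 1.16 over CHIR, since the divided peaks were narrow; 2 members were then higher and 0 lower in each of these comparisons, 0 were higher in CHIR over RPMI, 0 (RPMI) and 1 (CHIR) stood among the 10 highest peaks, and 2 of the 5 most alike genes stayed. With the highest peak of each member alone the sums with CHIR+SB were 0.972 over RPMI and 0.847 over CHIR. At a fold of 2, 0 members were higher in CHIR over RPMI and 0 lower in CHIR+SB over RPMI. From raw reads, β-catenin over IgG was 8.69, 12.8 and 3.58 in RPMI, CHIR and CHIR+SB. At a signal minimum of 9.61, ribosomal protein genes with a CHIR+SB promoter peak numbered 4 in place of 8. In the whole 300-base window 1 gene held the YY1 letters. The shorter 8-letter core was held by 6 genes, where the 9 letters TCTCGCGAG were held by 3. Of 81 ratios of single members under alternatives, 77 moved by less than their interval and 4 (RBM39 and ASXL1 per kb in CHIR+SB) did not. The 81 leave out the higher segment alone at RBM39 and ASXL1. With it, each ratio of CHIR+SB to RPMI or CHIR fell below its interval for the summed segments. Counts of 32 to 234 reads per member limit what can be seen: ratios within their intervals of 1 were not detectable as differences.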

Other observations

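RefSeq places a start on the opposite strand within 1 kb of the starts of CDC5L (LOC124901323), ERCC6L2 (ERCC6L2-AS1) and RNF167 (SLC25A11), and none there for QRICH1, RPL10A, CDK12 and ASXL1. Among RPMI promoter peaks without the 9 genes, 43.5% of the genes with a window held the whole palindrome (50 of 115), against 0.644% of protein-coding genes, and in the highest of the 4 signal groups it was 56.5% (13 of 23). CTTTGAT was held by 3.48% of them (4 of 115) and by 3.57% of the genes whose CHIR promoter peak overlapped no RPMI peak (4 of 112), against 2.34% of protein-coding genes.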
